A study of Mus musculus with 10 samples.

Results

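miR-210-3p is the mature strand released from the 3′ side of the mouse Mir210 hairpin. It was taken as the single row named mmu-miR-210-3p, 1 of the 1139 mature miRNAs of the deposited count tables, and the other strand of the hairpin, miR-210-5p, was read beside it. Small RNA was sequenced from hearts of male C57Bl6N mice, 1 week after transverse aortic constriction (TAC), an operation that narrows the aorta and makes the left ventricle pump against a high pressure. Group 1 holds 5 libraries of floxed control hearts, in which Cited4 carries recombination sites, and group 2 holds 5 libraries of CITED4 knockout hearts. All 10 libraries were made after the operation, so its own effect on miR-210-3p was not measured here. The sources used here name neither the age of the mice nor the Cre line, nor do they say whether each library came from its own animal. The p-values therefore weigh differences against the variation among libraries only, and this variation may be technical.

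The level of miR-210-3p is widely used as a reading of hypoxia signalling. When oxygen is short, hypoxia-inducible factor (HIF) binds the Mir210 promoter, and the miRNA then lowers transcripts of mitochondrial iron-sulfur cluster assembly (ISCU), of the ephrin EFNA3 and of GPD1L, an upstream regulator of HIF stability. In heart muscle it is known from ischaemia, where it has been linked to cell survival and vessel growth. HIF needs the coactivators p300 and CBP to switch on its targets. CITED proteins bind the same region of these coactivators, and CITED4 was shown to restrain hypoxia-driven transcription in cultured cells. The comparison of knockout with control hearts therefore asks whether this HIF target differs when CITED4 is missing under pressure overload.

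The sequences are shown because the seed of miR-210-3p has no relative in the mouse and few matches in transcripts. Mir210 (RefSeq, GRCm38.p6) lies on the minus strand of chromosome 7, from 141221384 to 141221493. No other gene of the GENCODE M21 annotation overlaps it. The nearest genes are Rassf7, 2726 bases away, and Phrf1, 7291 bases away, both on the other strand. In the hairpin below, the capitals mark first the 5p and then the 3p strand, which 16 bases of the loop region separate. In both mature strands the capitals mark the seed, bases 2 to 8, which pairs with target transcripts.
Mir210 hairpin: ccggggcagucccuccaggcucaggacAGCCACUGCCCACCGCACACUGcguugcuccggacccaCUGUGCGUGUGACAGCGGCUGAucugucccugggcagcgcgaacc
miR-210-3p: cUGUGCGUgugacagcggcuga
miR-210-5p: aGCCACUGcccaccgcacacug
Of 1679 mature mouse miRNA names in the RefSeq table, 0 others have this 3p seed, and 0 share bases 2 to 7. The seed contains a CG pair, which is rare in mammalian transcripts. Its perfect match, ACGCACA, stands in the longest annotated 3′ UTR of 646 of 21020 protein-coding genes (3.07%, sense strand only). The match to the miR-30a-5p seed, TGTTTAC, stands in 13.8% of them. Among 9 genes listed for this report as targets known from the literature, Efna3 had 1 match and Gpd1l had 3, while the letters were not found in the windows of Iscu, Ptpn1, Ndufa4, Cox10, E2f3, Casp8ap2 and Rad52. Below, the capitals mark the match in Efna3 (chr3:89314665-89314687, GRCm38, minus strand) and the match of Gpd1l nearest to its stop codon (chr9:114902218-114902240, minus strand). The target transcripts themselves were not measured.
Efna3 3′ UTR: gacaggacctatgcaACGCACAg
Gpd1l 3′ UTR: caactacagacacacACGCACAt

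miR-210-3p was well detected in every library, and its difference between the genotypes was smaller than the spread of the libraries. The level is given in CPM, the usual depth-scaled count, with library sizes adjusted by the trimmed mean of M-values (TMM). In the control libraries 1 to 5 it was 409, 343, 326, 239 and 213 CPM. In the knockout libraries 1 to 5 it was 361, 472, 251, 288 and 390 CPM. The groups overlapped widely: 4 of 5 knockout libraries lay within the control range, knockout replicate 2 lay above it, and control replicates 4 and 5 lay below the lowest knockout. The control mean was 306 ± 79.8 CPM and the knockout mean 352 ± 87.0 CPM (SD, n = 5 each), and 3 of 5 knockout libraries were above the control mean.

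The fitted difference was 0.20 ± 0.21 (SE) on the log2 scale, or 1.15-fold higher in knockout, with a 95% interval from 0.841-fold to 1.58-fold. It did not pass edgeR's quasi-likelihood test (unadjusted p = 0.35, adjusted p = 0.68 over 457 miRNAs tested). An exact two-sided permutation test of log2 CPM gave a difference of 0.21 with p = 0.38, where 5 libraries against 5 can reach 0.0079. The interval holds values below and above no difference, so the missed threshold does not show that the level was alike. As background, 0.00% of the 457 miRNAs passed at an adjusted p of 0.05 as higher and 0.00% as lower. At an unadjusted p under 0.05 there were 29 of 457 (6.35%), and the CPM of the groups did not overlap for 3 (0.656%). The number called was 0 with DESeq2 (45 of 1105 under an unadjusted p of 0.05) and 0 with limma-voom (23 of 457). A total of 232 tested miRNAs had a smaller p than miR-210-3p.

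**Figure D1:**
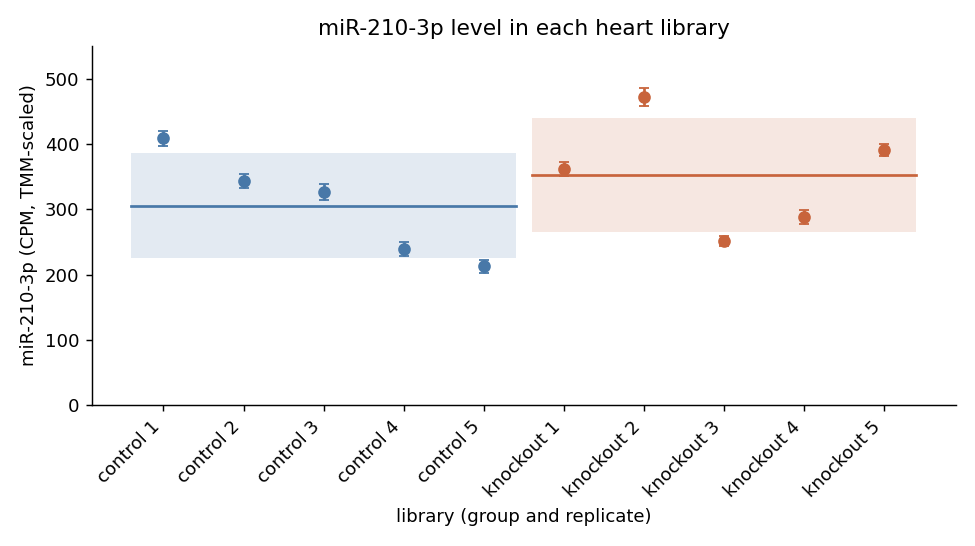
Level of miR-210-3p in CPM (vertical axis) in each library (horizontal axis), blue for control and orange for knockout; bars are exact 95% Poisson intervals of the count, lines are group means and bands are ± 1 SD. The 5 control libraries span 213 to 409 CPM and the 5 knockout libraries 251 to 472 CPM, so the groups overlap, and the counting intervals are far narrower than the bands.

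Counting error was small beside the spread between libraries. The libraries held 7526091 to 18369483 counts, and miR-210-3p had 1754 to 7117 of them. Its counting error was thus 1.19% to 2.39% of the level in a library, which covers counting error only, since reads without molecular identifiers are not independent molecules. The libraries of a group had a coefficient of variation of 26.1% in controls and 24.7% in knockouts. On the log2 scale this within-group SD was 0.37. Of 57 miRNAs whose mean level lay within 2-fold of that of miR-210-3p, 19 varied more, and their median SD was 0.25. The library totals themselves were 9936086 ± 1484042 and 13090707 ± 4480297 (exact two-sided permutation test, p = 0.24).

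Among all rows of a library, miR-210-3p ranked between 75 and 108 by count. In the order of control levels its neighbours above were miR-9-5p at 316 ± 76.9 CPM and miR-378b at 310 ± 111 CPM. Those below were the leukocyte miRNA miR-142a-3p at 304 ± 43.9 CPM and miR-191-5p at 295 ± 51.7 CPM. All 4 lay within 1 SD of miR-210-3p, so this order is not resolved, and capture in a small RNA library also depends on sequence. The heart and skeletal muscle miRNA miR-1a-3p was the most abundant row, with a control mean of 351241 ± 122216 CPM and a knockout mean of 299919 ± 77136 CPM.

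In the authors' normalized values, counts divided by a DESeq2 size factor, the control libraries averaged 3318 ± 855 and the knockout libraries 3817 ± 903. Scaling to reference miRNAs, as in quantitative PCR, was also tried. Against the mean of 3 reference miRNAs (miR-191-5p, miR-423-5p and let-7a-5p), miR-210-3p was 0.31 higher in knockout on the log2 scale (exact two-sided permutation test, p = 0.25). The references themselves had log2 fold changes of -0.16, -0.17 and -0.03, none past the test.

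**Figure D2:**
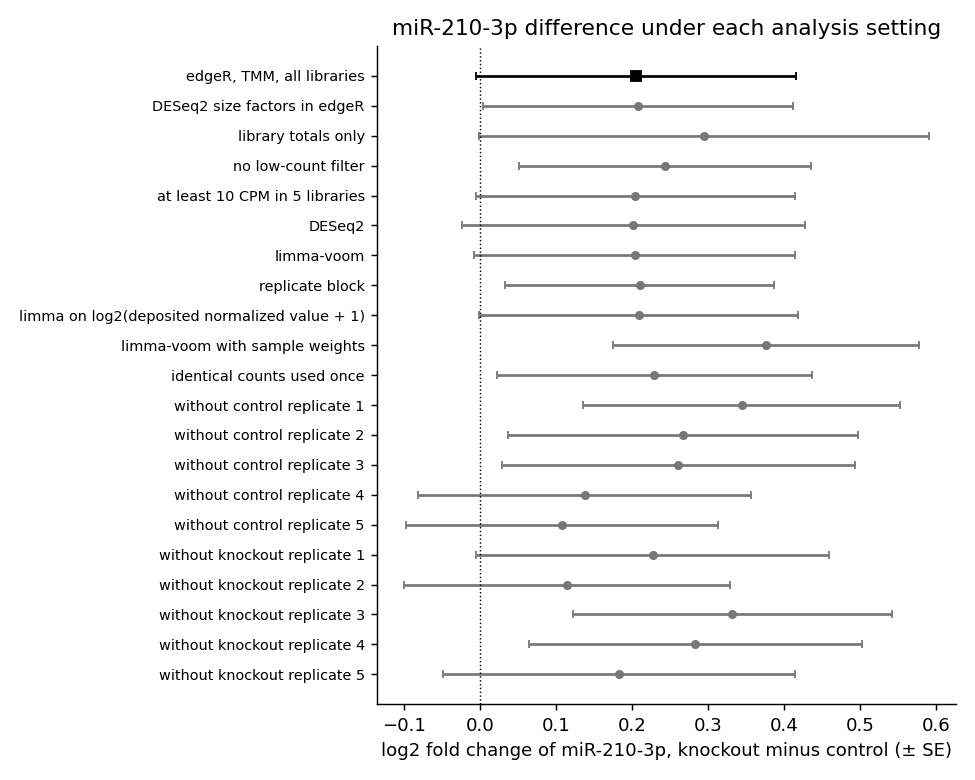
Log2 fold change of miR-210-3p, knockout minus control (horizontal axis, bars are ± 1 SE), for the edgeR fit (black square) and each alternative setting (grey points, vertical axis). All 21 estimates are above 0, from 0.11 without control replicate 5 to 0.38 with sample weights, and the fit with TMM and all libraries gives 0.20.

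The same sign in all alternatives did not make the difference a called one. The smallest adjusted p was 0.28, in limma-voom with sample weights, where the log2 fold change was 0.38. Single libraries moved the estimate by more than 1.5 times: leaving out control replicate 1 gave 0.34, and leaving out knockout replicate 3 gave 0.33. It was 0.11 without control replicate 5 or without knockout replicate 2.

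The passenger strand miR-210-5p was rare, with 97.4 to 1299 reads of miR-210-3p for each of its own, and its difference between the genotypes did not pass the test. Its counts were 35, 3, 27, 16 and 18 in control libraries 1 to 5 and 32, 15, 23, 17 and 52 in knockout libraries 1 to 5. Control replicate 2 stood far below the others with 3 counts, or 0.264 CPM, with an exact 95% Poisson interval from 0.0544 to 0.771 CPM. The control mean was 2.12 ± 1.16 CPM and the knockout mean 2.01 ± 0.68 CPM. The log2 fold change was -0.06 ± 0.48 (SE), with a 95% interval from 0.466-fold to 1.97-fold (edgeR adjusted p = 0.96), and its sign depended on the setting.

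The share of miR-210-5p in the reads of both strands needs no scaling of libraries. It was 0.737%, 0.0769%, 0.961%, 0.820% and 1.02% in control libraries 1 to 5. In knockout libraries 1 to 5 it was 0.725%, 0.311%, 0.576%, 0.557% and 0.725%. The means were 0.722% ± 0.377 and 0.579% ± 0.169, and all 5 knockout libraries lay within the control range, which control replicate 2 alone extended downward. The log2 ratio of 3p to 5p counts (0.5 added to each) averaged 7.46 ± 1.5 over controls and 7.45 ± 0.49 over knockouts (exact two-sided permutation test, p = 1). Without control replicate 2, all 5 knockout shares lay below all 4 control shares, 0.311% to 0.725% against 0.737% to 1.02%, and the log2 ratio was 0.67 higher in knockout (exact permutation test, p = 0.032). This reading rests on leaving out a single library and on 5p counts of 15 to 52. The exact binomial intervals of the shares overlapped between the groups: knockout replicate 5, at 0.725%, had an interval from 0.542% to 0.950%.

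**Figure D3:**
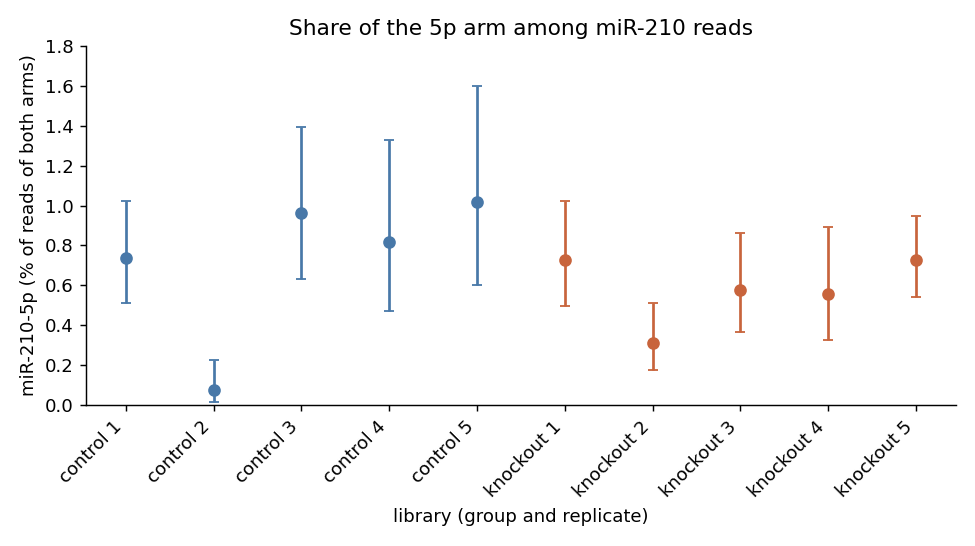
Share of miR-210-5p in the reads of both strands, in percent (vertical axis), in each library (horizontal axis), blue for control and orange for knockout; bars are exact (Clopper-Pearson) 95% binomial intervals. Control replicate 2 sits at 0.0769%, the 4 other controls between 0.737% and 1.02%, and the 5 knockouts between 0.311% and 0.725%.

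No miRNA of the lists tied to low oxygen passed the test of knockout against control. A list of 19 miRNAs reported to rise in hypoxia, mostly from cultured cells, had 0 members past the edgeR test in either direction (background 0.00% each way). The list had 4 higher and 15 lower means, beside 243 higher and 214 lower over all 457 tested miRNAs. Its median log2 fold change was -0.15, beside 0.03 over all tested miRNAs. With scaling by library totals only, these medians were -0.03 and 0.14. The mean level of the list over the libraries had r = -0.70 with miR-210-3p (adjusted permutation p = 0.086), and 0.83 with library totals only, so its sign rests on the scaling. miR-382-5p, of the imprinted Dlk1-Dio3 cluster, averaged 58.2 ± 29.7 CPM over controls and 91.7 ± 31.0 CPM over knockouts (0.65 ± 0.35 on the log2 scale). The abundant miR-26a-5p was at 29148 ± 5491 and 23252 ± 5309 CPM (-0.33 ± 0.19). miR-23b-3p and miR-181b-5p each had a log2 fold change of -0.26 ± 0.16. The other members with a higher mean in knockout were miR-21a-5p, miR-125b-5p and miR-429-3p, picked out after their values were seen.

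A second list held 10 miRNAs reported to lower the HIF subunits HIF1A or ARNT. Of these, 0 passed either way, as over all tested miRNAs (background 0.00% each way). Its median log2 fold change was 0.02, with 7 higher and 3 lower means, and its sign turned in 2 of 20 alternatives. miR-199a-5p, which keeps HIF1A low in heart muscle cells, averaged 708 ± 404 CPM over controls and 926 ± 347 CPM over knockouts (0.39 ± 0.37). miR-22-3p was at 5631 ± 2205 and 4355 ± 1052 CPM (-0.37 ± 0.24). miR-18a-5p, of the miR-17-92 cluster, was at 41.8 ± 6.41 and 48.1 ± 4.25 CPM. The groups overlapped, and the log2 fold change was 0.20 ± 0.15 (edgeR adjusted p = 0.64). miR-107-3p, which targets ARNT, was at 459 ± 37.2 and 420 ± 45.9 CPM. miR-107-3p, miR-155-5p and miR-429-3p stand in both lists, and miR-199a-5p is also a fibroblast marker below.

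The level of miR-210-3p varied together with that of many other miRNAs. Likeness was measured by Pearson's r and Spearman's rho of log2 CPM over the 10 libraries, for 456 miRNAs, with permutation p-values adjusted over these 456 relations. The closest was miR-673-5p, encoded at the start of the Dlk1-Dio3 miRNA cluster, with r = 0.95 (adjusted permutation p = 0.0057) and rho = 0.98 (adjusted permutation p = 0.0061). Without control replicate 5 and knockout replicate 2, the libraries farthest from the median of miR-210-3p, its r was 0.91. It was followed by miR-1247-5p (r = 0.93), miR-199a-5p (r = 0.91), miR-21a-3p, the passenger strand of the fibrosis-linked miR-21a (r = 0.90), and miR-490-3p (r = 0.90). Their adjusted permutation p-values ran from 0.0064 to 0.024 for r and from 0.0078 to 0.030 for rho. Without the same libraries, r was 0.85, 0.82, 0.80 and 0.85. Within the 7 libraries above the largest gap in its level, miR-490-3p had r = 0.68 (exact permutation p = 0.094), a check chosen after seeing the data. On the larger side of their own gaps, miR-673-5p, miR-1247-5p, miR-199a-5p and miR-21a-3p had r of 0.92, 0.88, 0.96 and 0.94. Their exact permutation p-values were 0.00097, 0.0041, 0.0028 and 0.00082.

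Most opposed were miR-30a-3p (r = -0.97, rho = -0.99), miR-26b-5p (r = -0.97, rho = -0.99) and miR-30e-3p (r = -0.96, rho = -0.96). Their adjusted permutation p was 0.0030 for each r, and 0.0061, 0.0046 and 0.0078 for rho. Without control replicate 5 and knockout replicate 2, r was -0.97, -0.95 and -0.92. With scaling by library totals only, r weakened to -0.55, -0.64 and -0.71 and did not pass, while the 5 most alike were then at 0.93 to 0.97. As deviations from the group means, which removes the genotype, all 8 had r of 0.89 to 0.96 or -0.95 to -0.97. In all, 69 of 456 relations passed at an adjusted p of 0.05, 43 positive and 26 negative. The opposed miR-26b-5p also stands in the list of miRNAs that rise in hypoxia. Members of that list stood on both sides, from r = -0.97 for miR-26b-5p to 0.87 for miR-125b-5p.

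The mature sequences below, with seeds in capitals, show that the opposed pair from the miR-30 family has a common seed of its own. That none has the seed of miR-210-3p was already given by the search above, which found it in no other mouse miRNA.
miR-673-5p: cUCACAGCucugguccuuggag
miR-1247-5p: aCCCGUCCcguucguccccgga
miR-199a-5p: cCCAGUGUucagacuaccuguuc
miR-21a-3p: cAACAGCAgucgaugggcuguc
miR-490-3p: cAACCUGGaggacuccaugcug
miR-30a-3p: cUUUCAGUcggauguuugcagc
miR-26b-5p: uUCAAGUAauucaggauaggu
miR-30e-3p: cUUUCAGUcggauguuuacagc
Base composition was set beside this likeness. miR-210-3p has a GC content of 63.6%, the 5 most alike 52.2% to 72.7% and the 3 most opposed 33.3% to 50%. Over the 387 of 448 other tested miRNAs with a sequence (86.4%, identical count rows used once), the correlation of GC content with r was weak, at 0.14 (Pearson) and 0.15 (Spearman). These are correlations across miRNAs, which are not independent. The median r was -0.09 over the 134 miRNAs with at most 42.9% GC and 0.14 over the 164 with at least 50% GC. With scaling by library totals only, these medians were 0.49 and 0.64, so the sign of the first rests on the scaling. The part of base composition in the likeness was not tested.

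miR-210-3p also varied with markers of fibroblasts and, in the opposite direction and more weakly with library totals only, with those of heart muscle cells. The libraries were made from whole hearts, where a change in the share of a cell type and a change of RNA per cell cannot be told apart. The mean log2 CPM of 3 fibroblast miRNAs (miR-199a-3p, miR-199a-5p and miR-214-3p) correlated with miR-210-3p over the 10 libraries, with r = 0.87 (permutation p = 0.0018, adjusted 0.018 over 10 relations) and rho = 0.93 (permutation p = 0.00035, adjusted 0.0035). Without control replicate 5 and knockout replicate 2, r was 0.78, and with library totals only it was 0.91. As deviations from the group means r was 0.85. The single members miR-199a-3p, miR-199a-5p and miR-214-3p had r of 0.80, 0.91 and 0.84. The list holds both strands of miR-199a, so its members are not independent of each other. miR-199a-5p was already among the most alike miRNAs above, so the r of the list partly repeats that ranking. The value with library totals only is not particular to fibroblasts. The list of miRNAs that rise in hypoxia then had r = 0.83, that of HIF subunits 0.85 and that of other organs 0.75. The fibroblast list means lay at 9.30 to 9.74 in 4 libraries and at 10.24 to 10.96 in 6, a gap of 30.4% of their range. Within these 6 libraries r was 0.90 (exact permutation p = 0.0097), a check also chosen after seeing the data. The same check gave r of 0.22 for the list of miRNAs that rise in hypoxia and 0.36 for that of HIF subunits. It gave 0.12 for the endothelial, -0.13 for the leukocyte and -0.67 for the erythroid list. The exact permutation p of these other lists was at least 0.076. The fibroblast list summed to 9183 to 23242 CPM in controls and 12331 to 24561 CPM in knockouts. Of its 3 members, 0 passed the edgeR test (background 0.00% each way).

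The mean log2 CPM of 6 heart muscle cell miRNAs had r = -0.82 with miR-210-3p (permutation p = 0.0064, adjusted 0.032) and rho = -0.88 (permutation p = 0.0017, adjusted 0.0085). Without control replicate 5 and knockout replicate 2, r was -0.77, and as deviations from the group means it was -0.80. With library totals only it was -0.33. With TMM scaling the single members ran from r = -0.88 for miR-1a-3p to 0.17 for miR-208b-3p. The latter was also the only 1 of the 6 with a higher mean in knockout (log2 fold change 0.35). The list means lay at 10.33 to 10.66 in 5 libraries and at 10.92 to 11.24 in the 5 others, a gap of 29.0% of their range, and neither side holds enough libraries for an r of its own. miR-1a-3p took 39.3% and 38.0% of the counts in control replicates 4 and 5, which had the lowest miR-210-3p, and 24.8% in knockout replicate 2, which had the highest. The muscle list summed to 242925 to 504570 CPM in controls and 220847 to 387114 CPM in knockouts. The erythroid list (2 of 3 fixed members tested) summed to 279 to 1105 CPM in controls and 214 to 865 CPM in knockouts, and its r of -0.66 with miR-210-3p did not pass (permutation p = 0.040, adjusted 0.099), while its rho of -0.79 did (adjusted permutation p = 0.029). The endothelial, smooth muscle and leukocyte lists had r of -0.64, -0.27 and -0.04, the list of other organs 0.45 and the library total -0.10, with adjusted permutation p of at least 0.10. With library totals only, the first 3 were 0.35, 0.66 and 0.71. The leukocyte value of -0.04 averages members that went both ways with TMM scaling. These were miR-142a-3p (r = 0.87, adjusted permutation p = 0.025), miR-223-3p (0.55), miR-142a-5p (-0.36) and miR-150-5p (-0.75). The median log2 fold changes were -0.40 for the muscle list, 0.39 for fibroblasts, -0.15 for endothelium and -0.13 for smooth muscle. They were -0.07 for leukocytes and -0.49 for the erythroid list. In each of these lists 0 members were called, as over all tested miRNAs (background 0.00% each way). miR-124-3p, a neuronal marker, had 0 counts in all libraries. The part of these cell types in the spread of miR-210-3p, or in its difference between the genotypes, was not tested.

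**Figure D4:**
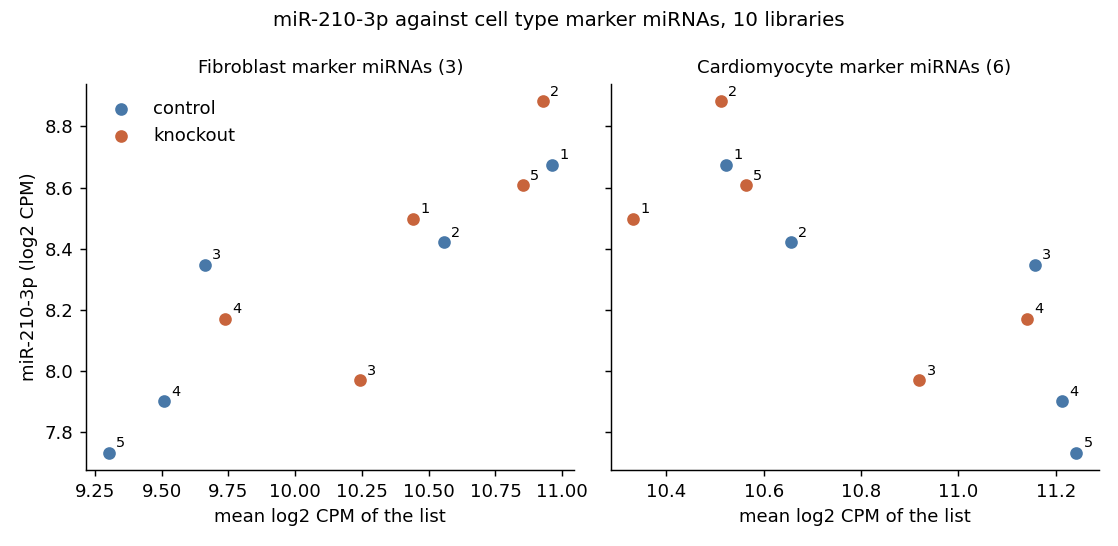
Level of miR-210-3p in log2 CPM (vertical axis) against the mean log2 CPM of 3 fibroblast (left) and 6 cardiomyocyte (right) marker miRNAs, 1 point per library labelled with its replicate number, blue for control and orange for knockout. miR-210-3p is higher where the fibroblast list is higher (r = 0.87) and lower where the cardiomyocyte list is higher (r = -0.82, but -0.33 with library totals only).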

How the data were processed

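Per the submitters' processing notes, the tools were DESeq2, STAR, Bowtie and cutadapt 1.10, on the build GRCm38, with no role named for each. The miRNA annotation release and the handling of multiply matching reads were not given in the sources used here. The authors deposited raw counts per mature miRNA, without normalization, and a normalized signal. That deposited signal equalled the count divided by the DESeq2 size factor computed here, within a relative tolerance of 1e-09. Columns were matched to libraries by title. edgeR 4.0.16 (R 4.3.3) kept 457 of 1139 miRNAs (filterByExpr), which held 99.99% of the counts. Scaling was by TMM, the test was the quasi-likelihood test with genotype as its only term, and Benjamini-Hochberg adjustment ran over the 457, with a threshold of 0.05. The SE is the log2 fold change over the square root of F, and log2 CPM has a prior count of 2. Permutation tests of correlations over all 10 libraries drew 100000 resamples, others were exact. The fit was also run on simulated counts, drawn independently for each miRNA with the spread estimated here. That run cannot show how the test behaves where miRNAs vary together.

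The named miRNAs are both strands of the hairpin, the 5 most and 3 least alike in r, the 4 nearest in control level, the 4 of each hypoxia list with the smallest p, the references and the most abundant marker of each cell type. Of the last, miR-126a-3p was at 22874 ± 2497 and 20703 ± 2610 CPM, miR-199a-3p at 13638 ± 6176 and 17891 ± 4935, miR-143-3p at 30858 ± 2262 and 30307 ± 2671, miR-223-3p at 344 ± 40.7 and 398 ± 119, miR-144-3p at 485 ± 289 and 311 ± 182, and miR-122-5p at 60.7 ± 31.9 and 52.7 ± 10.3 CPM in controls and knockouts. The member, the lists and the known targets were chosen with earlier results of these data known. Pairs of libraries within a group were compared for repeated deposits. Chi-square over its degrees of freedom ran from 121 to 2647, above counting noise, so some libraries were far closer than others. The closest were control replicates 4 and 5, which also had the lowest miR-210-3p. The permutation tests took all libraries as exchangeable. The comparison of pairs does not tell separate animals from separate preparations of 1 animal. Both groups have replicates 1 to 5, with no label to tie equal numbers, so the numbers were not taken as pairs. Same-number libraries correlated in their deviations at 0.45, 0.38, -0.08, 0.40 and -0.12. Libraries of unequal number were not compared in this way, so these values cannot decide whether the numbers mark pairs. Alternatives were other scalings, filters, tools, pseudocounts and references, a replicate block and leaving out each library. Sequences are from RefSeq (GRCm38.p6), 3′ UTRs from GENCODE M21; 390 of 457 tested miRNAs matched a RefSeq sequence by name.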

Additional observations from a re-analysis of the deposited data

Results flagged for a closer look

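Of 64 groups of 5 libraries examined for a library far from the other 4, 4 stood out: the gap to the nearest library, divided by the whole range, was above 0.71. Chance gives about 1 in 20 groups. In control replicate 2 the log2 ratio of miR-210-3p to miR-210-5p counts was 10.12 beside 6.57 to 7.05 in the others, a gap of 0.863 of the range. Control replicate 4 had 450 CPM of miR-9-5p, a neighbour of miR-210-3p in level, where the others had 265 to 305 CPM. For miR-22-3p, knockout replicate 4 stood at 6183 CPM and the rest at 3581 to 4278 CPM. For the smooth muscle marker miR-143-3p, knockout replicate 3 stood at 25640 CPM and the rest at 30905 to 32415 CPM. The level of miR-210-3p itself was not flagged in either group.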

How the results depend on the processing

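The log2 fold change of miR-210-3p was positive and not called in all 20 alternatives, from 0.11 to 0.38, with 0.11 to 0.34 when 1 library was left out; the exact tests of its level and of its ratio to the references did not pass in any either. Counts of called miRNAs were 0 in all 20. Identical counts used once was chosen after seeing the data. A replicate block gave miR-210-3p a log2 fold change of 0.21 (adjusted p = 0.57) and changed no call of miR-210-3p or of another miRNA. For miR-210-5p the sign turned, uncalled, to 0.0208 with library totals only, 0.31 and 0.40 with limma-voom without and with sample weights, 0.0569 with the replicate block and 0.19 with limma on normalized values, and it ran from -0.34 to 0.15 with 1 library left out. The log2 arm ratio turned from -0.001 to 0.087 with a pseudocount of 2 and ran from -0.22 to 0.67 with 1 library left out. miR-210-5p has no value with at least 10 CPM required in 5 libraries. With library totals only, 153 relations to miR-210-3p passed in place of 69, and the median of the hypoxia list was -0.0273 in place of -0.15. miRNAs at an unadjusted p under 0.05 were 29 of 457, 102 of 1105 without a filter, 14 with library totals only, 72 with the replicate block, 99 with sample weights, and 6 to 84 with 1 library left out. The cause of these changes was not tested. Few 5p counts limit the arm ratio.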
